A study of Mus musculus with 10 samples.

Results

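A set of 8 genes listed as identity genes of the mesangial cell and the pericyte was followed across the glomeruli of 10 mice. It held the transcription factor gene Gata3, the surface protein genes Cspg4, Mcam and Thy1, and the G-protein regulator gene Rgs5. The others were the potassium channel genes Kcnj8 and Abcc9 and the secreted growth factor gene Ptn. They were taken as all probe sets whose platform annotation names one of these genes and no other, which gave 16 probe sets of 8 genes among 45037 probe sets and 18193 genes. The rule uses gene names and no measured value, but the names were picked with earlier results of these data known.

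Mesangial cells are contractile cells that hold the capillary loops of the glomerulus together, and pericytes are the related cells that wrap other small vessels. In the kidney both descend largely from the renal stroma and depend on PDGF-B released by the endothelium, which they receive through the receptor PDGFRB. None of the genes is confined to these cells: Gata3 is also a gene of the collecting duct and of T cells, Mcam of endothelium, Thy1 of T cells and neurons, and Abcc9 and Rgs5 of arterial smooth muscle.

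The mice were males of 27 days on an FVB/N background reached by 4 generations of backcrossing, killed before weaning. The 5 mutants were heterozygous for a knock-in of the R394W change in Wt1 (Wt1 +/R394W), a recurrent missense change of Denys-Drash syndrome, and the 5 controls were wild-type littermates (Wt1 +/+). The allele was in the germ line, so every cell type of the mouse carried it, and the mutants were described as having little protein in the urine and no mesangial lesion by light microscopy. Glomeruli were collected with magnetic beads perfused through the heart, and RNA of each mouse went onto 1 array, whose deposited values are log2 expression levels. In such bulk RNA, fewer cells of a type and less RNA per cell cannot be told apart.

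Markers of the glomerular cell types were read in every mouse, but with no other tissue on the arrays and with levels of different probe sets not comparable, they do not measure purity. The mean log2 level of 7 podocyte genes lay between 13.20 and 13.50 in all mice, that of 12 endothelial genes between 12.11 and 12.40, and that of 22 further mesangial and mural genes between 9.45 and 9.61. Tubule was present in varying amount: the mean of 12 proximal tubule genes (the proximal tubule score) spanned 6.51 to 9.28 among wild types and 6.90 to 10.38 among mutants. Wild type 5 and mutant 5 had the least tubule, at 6.51 and 6.90, and mutant 4 the most. T cell genes, 8 of them measured, averaged 5.94 to 6.42 per mouse, and 7 nerve and Schwann cell genes averaged 4.83 to 4.99. Wt1 itself read 11.06 to 11.45 in wild types and 11.43 to 11.85 in mutants, a difference of 0.33 ± 0.10 (SE, adjusted p = 0.244), and a probe set cannot read a single base change, so this level checks no label.

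No gene of the group passed the test between genotypes. Of 16 probe sets, 0 passed an adjusted p of 0.05 in limma's moderated test over all probe sets, where 0.853% of all probe sets passed. Their adjusted p-values ran from 0.249 to 0.974. At an unadjusted p of 0.05, 4 of 16 passed (both of Cspg4 and 1 of 3 of Ptn with lower values in mutants, and Mcam with higher values), against 9.36% of all probe sets. With 1 probe set per gene, the one with the highest mean over all arrays, 4 genes had positive and 4 negative differences, and the median difference of mutant minus wild type was -0.01, beside 0.00 over all genes. Of these 8 probe sets 2 had an unadjusted p under 0.05, beside 11.0% of all genes. The 95% interval of the difference lay inside 1 log2 unit either way, a 2-fold change, for 13 of 16 probe sets. The other 3 were all of Rgs5.

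**Figure D1:**
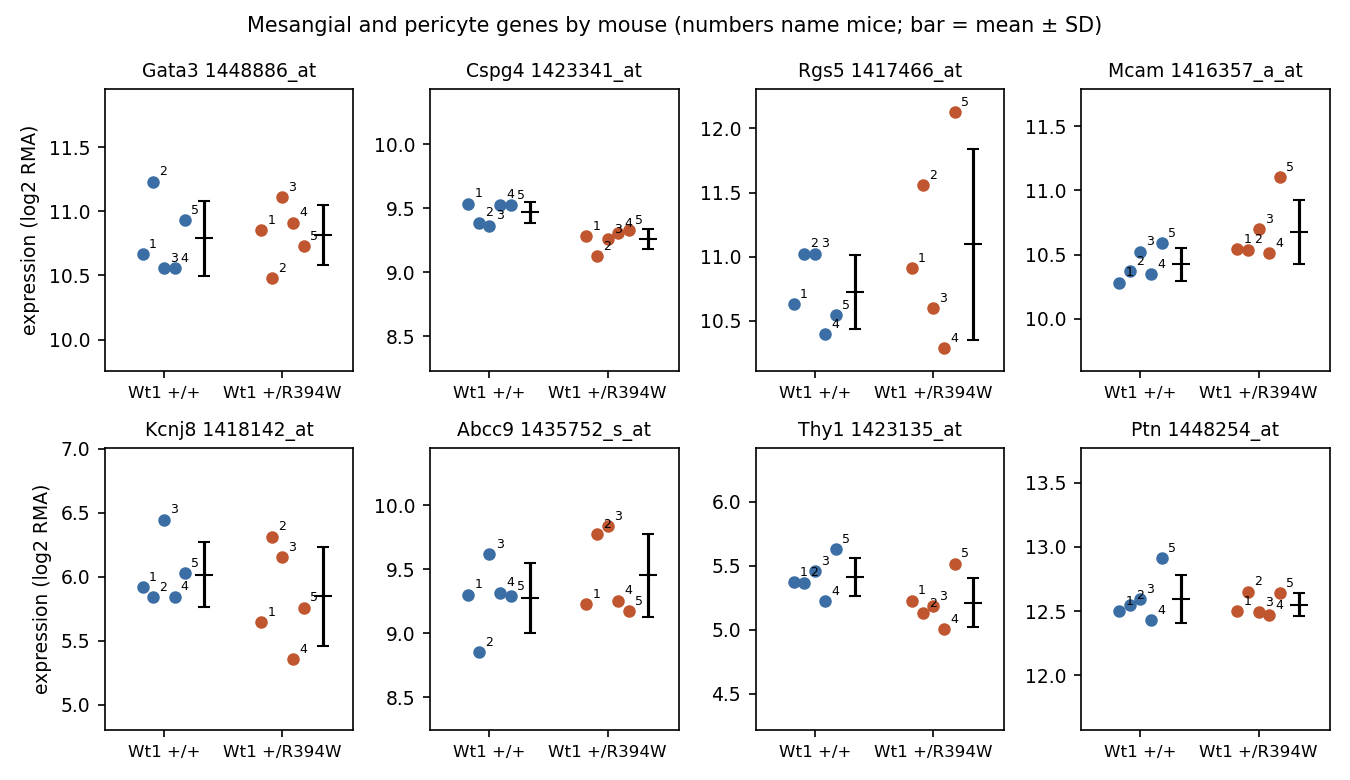
Log2 expression of the 8 genes in each mouse, by its brightest probe set, in wild-type (blue) and Wt1 +/R394W (orange) glomeruli, with mean and SD as bars. All panels span the same number of log2 units. The genotypes are separate in the Cspg4 panel alone, and mutants 2 and 5 stand high in the Rgs5 panel.

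**Figure D2:**
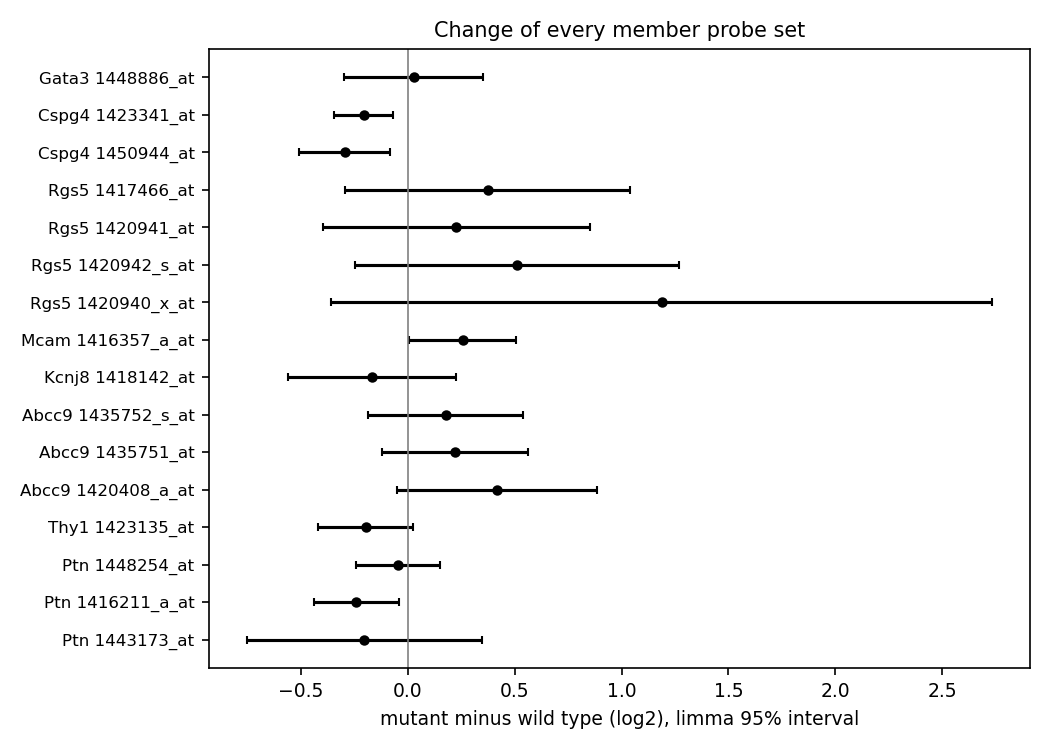
Difference of mutant minus wild type on the log2 scale for all 16 probe sets, with limma's 95% interval. The intervals of Rgs5 are the widest, and none of the 16 probe sets passed the adjusted test.

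Gata3 encodes a zinc finger transcription factor that mesangial cells need during glomerular development. Its only probe set (1448886_at, chromosome 2) read 10.67, 11.23, 10.56, 10.56 and 10.93 in wild types 1 to 5. In mutants 1 to 5 it read 10.85, 10.48, 11.11, 10.91 and 10.73. The groups overlapped over nearly their whole range, with wild type 2 highest and mutant 2 lowest. The means were 10.79 ± 0.29 (SD, n = 5) and 10.82 ± 0.24 (SD, n = 5), a difference of 0.03 ± 0.15 (SE, adjusted p = 0.974) whose interval ran from -0.30 to 0.35. The sign of this difference turned with the mouse left out, from -0.047 to 0.14.

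Gata3 is also a collecting duct gene, so its level was set against tubule in the preparation. In a fit of genotype together with the mean of 13 distal nephron and collecting duct genes, the slope of Gata3 was -0.12 ± 0.15 (SE, adjusted p = 0.896) per log2 unit of that mean, which is negative and not called. That mean spanned 6.49 to 7.84 among wild types and 6.50 to 8.002 among mutants. With it in the fit the genotype difference of Gata3 was 0.04 ± 0.15 (SE, adjusted p = 0.949). The genes of this mean that varied most within a genotype were Calb1, Umod and Slc12a1 (SD 1.79, 1.34 and 1.28). Aqp2 and Aqp3, water channel genes of the collecting duct, varied by 0.31 and 0.21. The slope therefore tells little about Gata3 from the collecting duct. Across the 10 arrays, after the mean of each genotype was taken off, the genes most like Gata3 among 11444 were Zbtb48 (r = 0.98), Ctdspl (r = 0.97) and Phf1 (r = 0.96). The highest of so many correlations over 10 arrays are high by selection alone. Here and for the other members they are a description with no test.

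No other GATA factor was called either. Of 6 measured GATA genes, 0 passed in either direction, against 1.26% of all genes, and their median difference was -0.09. Only 3 of the 6 lay above the median level of all probe sets, and Gata4, with a mean of 5.86, did not. The smallest p-values belonged to Gata5 at -0.25 ± 0.14 (SE, adjusted p = 0.657), Gata4 at -0.12 ± 0.07 (SE, adjusted p = 0.685) and Gata2 at -0.16 ± 0.10 (SE, adjusted p = 0.691).

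Cspg4 encodes the proteoglycan NG2, a classical pericyte surface marker, and was the gene closest to a separation of the genotypes. Probe set 1423341_at (chromosome 9) read 9.54, 9.39, 9.37, 9.53 and 9.52 in wild types 1 to 5. In mutants 1 to 5 the values were 9.28, 9.13, 9.26, 9.30 and 9.33. Every mutant lay below every wild type, with a gap of 0.03 between mutant 5 and wild type 3. The difference was -0.21 ± 0.06 (SE, adjusted p = 0.249), a 1.15-fold lower level, with an interval from -0.35 to -0.07. Groups failed to overlap in 1 of 16 probe sets, beside 2.78% of all probe sets, and with mutants lower in 1.48%.

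The second Cspg4 probe set (1450944_at) read 9.41, 9.36, 9.04, 9.21 and 8.99 in wild types and 9.14, 8.88, 8.84, 8.81 and 8.88 in mutants. Here mutant 1 lay above wild types 3 and 5, so the groups overlapped. The difference was -0.30 ± 0.10 (SE, adjusted p = 0.298). Both probe sets thus pointed the same way, but within a genotype the mice high in one were not high in the other (r = 0.09 over 10 arrays). The genes most like 1423341_at were Ahctf1 (r = 0.93), Opa3 (r = 0.90) and Ssna1 (r = 0.88). The difference stayed negative for both Cspg4 probe sets under every alternative run. It ran from -0.23 to -0.17 for 1423341_at and from -0.35 to -0.24 for 1450944_at. With the mean of all Cspg4 probe sets taken for the gene, the difference was -0.25. The adjusted test was passed in none of these runs.

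The promoter of Cspg4 is printed because 1423341_at was the only probe set of the group whose genotypes did not overlap. A second reason is that Wt1 encodes a DNA-binding zinc finger factor, whose binding was not tested here. The window runs from 250 bases before to 50 after the start given by RefSeq (GRCm38.p6, chr9:56864854-56865153, plus strand), with 2 matches to GGGCGG, the core of a GC box, in capitals.
Cspg4: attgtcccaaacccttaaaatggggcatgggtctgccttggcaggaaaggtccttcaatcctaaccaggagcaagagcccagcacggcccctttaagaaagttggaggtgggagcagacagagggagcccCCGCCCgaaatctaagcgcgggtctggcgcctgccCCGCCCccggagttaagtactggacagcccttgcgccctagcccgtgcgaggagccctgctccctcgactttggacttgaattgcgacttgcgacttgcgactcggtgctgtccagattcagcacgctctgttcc
Both matches lie on the strand opposite to the gene, and 35.7% of 32851 mouse promoter windows hold GGGCGG on either strand. The window holds no GCGGGGGCG, a site shared by WT1 and the EGR factors, which 2.91% of windows hold. Among the other genes, whose windows are not shown, GGGCGG matched 5 times for Mcam and 2 times for Gata3, CCAAT matched once each for Rgs5 and Ptn, and AGATAA once for Rgs5.

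Mcam encodes CD146, an adhesion molecule of pericytes and endothelium. Its probe set (1416357_a_at, chromosome 9) read 10.28, 10.37, 10.52, 10.35 and 10.59 in wild types 1 to 5. In mutants 1 to 5 the levels were 10.54, 10.54, 10.70, 10.51 and 11.10. Mutant 5 was the highest, and wild types 3 and 5 reached into the mutant range. The means were 10.42 ± 0.13 (SD, n = 5) and 10.68 ± 0.25 (SD, n = 5), a difference of 0.26 ± 0.12 (SE, adjusted p = 0.527) with an interval from 0.00 to 0.51. Without mutant 5 it was 0.15 (adjusted p = 0.701).

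Thy1 encodes CD90, a small surface protein anchored by glycosylphosphatidylinositol and the antigen against which mesangial cells are attacked in a rat nephritis. Which cells of these mouse glomeruli gave its signal was not tested. Signal was low, with a mean of 5.31 (1423135_at, chromosome 9), under the median of all probe sets. Wild types 1 to 5 read 5.38, 5.37, 5.46, 5.22 and 5.63, and mutants 1 to 5 read 5.23, 5.13, 5.18, 5.00 and 5.52. Mutant 5 again led its group, as wild type 5 did among the wild types. The difference was -0.20 ± 0.10 (SE, adjusted p = 0.598). Of the T cell genes, which could also bear on Thy1 and Gata3, 0 of 8 passed, beside 1.26% of all genes. Their differences were negative for 7 and positive for 1, with a median of -0.09.

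Mcam and Thy1 had the highest correlation of the 28 pairs of genes (r = 0.88, Spearman rho 0.81 over 10 arrays with genotype means taken off). It was 0.53 without mutant 5 and wild type 5, the 2 mice farthest from the median of Mcam, so it rests in part on them, and 0.28 on the values themselves, since the genotype differences of these genes have opposite signs. Both were high in the mice with little tubule: per log2 unit of the proximal tubule score, Mcam differed by -0.14 ± 0.03 (SE, adjusted p = 0.107) and Thy1 by -0.13 ± 0.03 (SE, adjusted p = 0.102). Neither slope passed the adjusted test, which 1.09% of all probe sets did, and without mutant 5 they were -0.09 (adjusted p = 0.653) and -0.11 (adjusted p = 0.577). Of the 16 probe sets, 12 had a negative slope and 0 passed. For the distal score, 10 of 16 were negative and 0 passed, beside 0.659% of all probe sets. With the proximal score in the fit the genotype difference of Mcam was 0.33 ± 0.07 (SE, adjusted p = 0.0842), the lowest adjusted p of any probe set of the group under any alternative run.

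**Figure D3:**
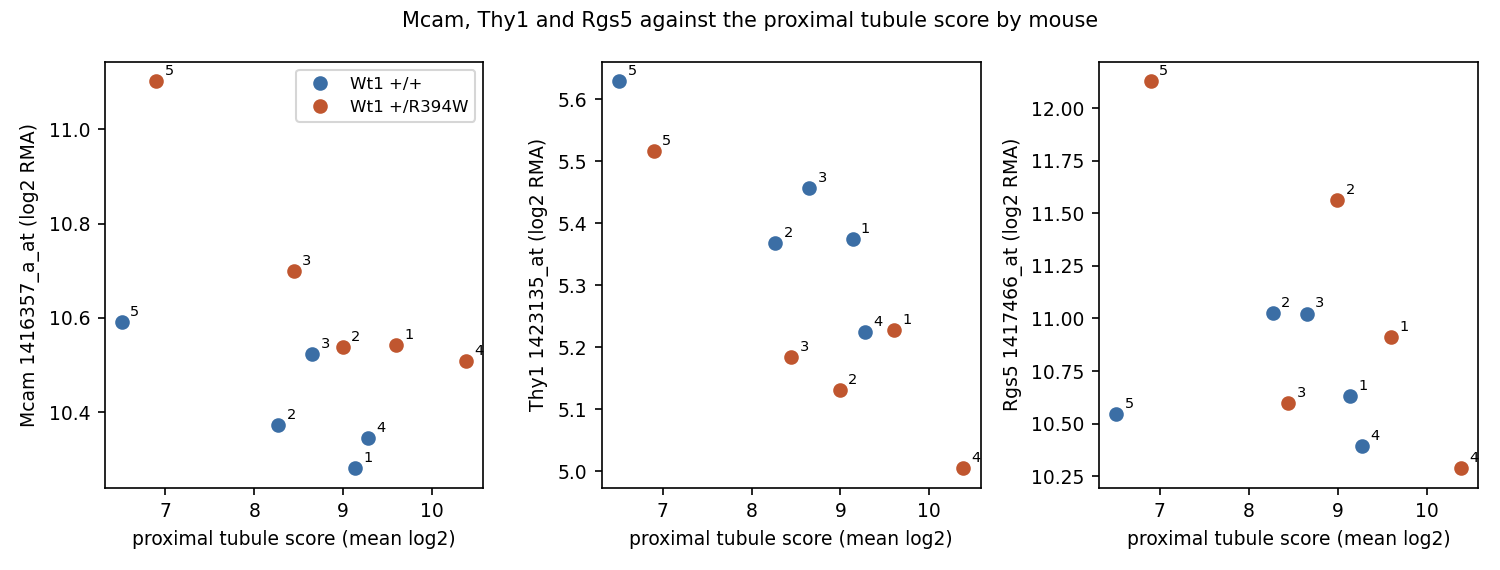
Log2 expression of Mcam, Thy1 and Rgs5 (1417466_at) against the proximal tubule score, the mean log2 level of 12 tubule genes, in each mouse. Wild type 5 and mutant 5, at scores of 6.51 and 6.90, have the highest Mcam and Thy1 of their genotypes, while for Rgs5 wild type 5 does not lead its group.

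The genes most like Mcam were Vkorc1 (r = 0.94), Uqcc2 (r = 0.94) and Elob (r = 0.93), and those most like Thy1 were Bet1l (r = 0.98), Vgll2 (r = 0.95) and Rab6a (r = 0.93). Of 10 surface proteins fixed as relatives, among them these and Cspg4, 0 passed, beside 1.26% of all genes, and the median difference was 0.00. Bcam, the Lutheran adhesion molecule and a receptor for laminin, had the smallest p-value: wild types read 11.40 to 11.66 and mutants 10.90 to 11.39, without overlap, a difference of -0.46 ± 0.10 (SE, adjusted p = 0.0577). Alcam, the activated leukocyte adhesion molecule, differed by 0.35 ± 0.16 (SE, adjusted p = 0.522). Endothelial genes, a second source of Mcam signal, gave 0 of 12 calls, beside 1.26% of all genes. Their differences were negative for 10 and positive for 2, with a median of -0.07.

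Rgs5 encodes a GTPase-activating protein that shortens signals from G-protein-coupled receptors in mural cells, and it varied most among the 8 genes. Probe set 1417466_at (chromosome 1) read 10.63, 11.02, 11.02, 10.39 and 10.55 in wild types 1 to 5. In mutants 1 to 5 it read 10.91, 11.56, 10.60, 10.29 and 12.13. Mutants 2 and 5 lay above all wild types, while mutants 3 and 4 lay among or below them. The means were 10.72 ± 0.29 (SD, n = 5) and 11.10 ± 0.74 (SD, n = 5), a difference of 0.37 ± 0.30 (SE, adjusted p = 0.778).

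The same 2 mice stood out in the other probe sets. With 1420942_s_at, mutants 2 and 5 read 9.66 and 10.38 and the other 8 mice between 8.22 and 8.93. With 1420940_x_at they read 9.06 and 9.45 and the others between 5.49 and 6.87. Probe set 1420941_at gave another order: mutants 1, 2 and 5 read 9.98, 9.97 and 10.05, and wild type 2 lay between mutants 1 and 5. Differences between genotypes were 0.51 ± 0.35 (SE, adjusted p = 0.721), 1.19 ± 0.71 (SE, adjusted p = 0.671) and 0.23 ± 0.28 (SE, adjusted p = 0.863) in that order. Suffixes _s_at and _x_at mark probe sets that can match more than one transcript, but 1417466_at, which carries neither, followed both of them across the mice (r = 0.98 and 0.94 over 10 arrays with genotype means taken off) and followed 1420941_at less closely (r = 0.75).

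**Figure D4:**
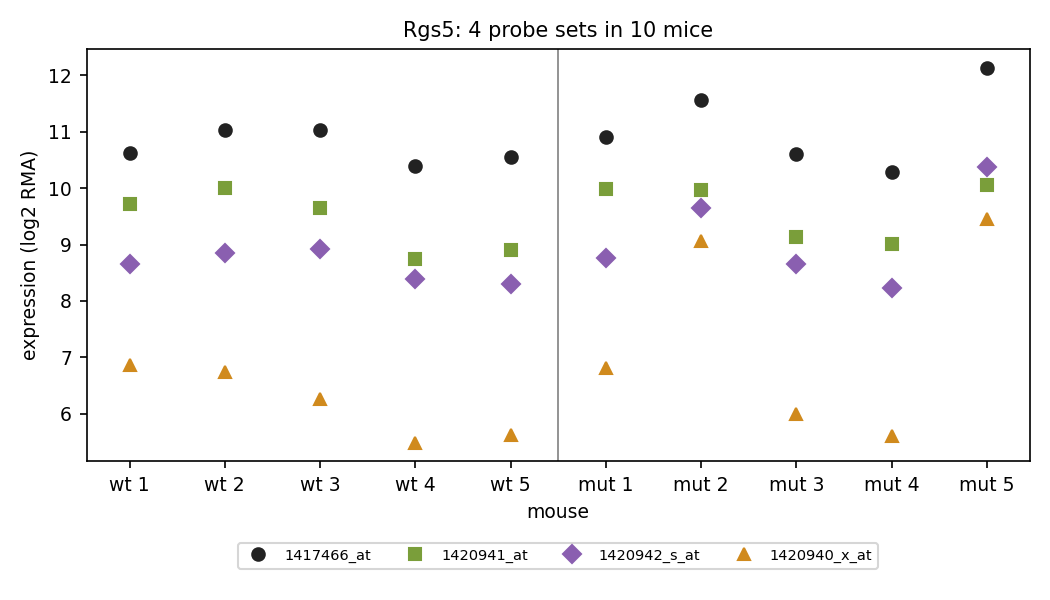
Log2 expression of the 4 Rgs5 probe sets (symbols) in each of 10 mice, wild types left and mutants right of the grey line. Mutants 2 and 5 are highest with 1417466_at, 1420942_s_at and 1420940_x_at, whereas with 1420941_at wild type 2 lies level with them.

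Within a genotype, the standard deviation of 1420940_x_at was larger than that of 99.8% of all probe sets, and that of 1417466_at was larger than for 98.3%. Leaving out mutant 5 took the difference of 1417466_at from 0.37 to 0.12 and leaving out mutant 4 took it to 0.58. Without mutant 5 the difference of 1420942_s_at was 0.20 and that of 1420940_x_at was 0.67 (0.77 without mutant 2). That of 1420941_at lay between 0.062 without wild type 4 and 0.38 without mutant 4. All kept their sign and none passed. For 1417466_at the 7 mice with close animal numbers, which also lack mutant 5, gave 0.03. The mean of 10 smooth muscle genes was highest in mutant 5 as well, at 9.45. It was 8.83 to 9.21 in the other mutants and 8.53 to 8.88 in wild types. Mutant 2, at 8.83, lay within the wild-type range. Among the 10 genes, Lmod1, Myocd, Actg2 and Smtn were not highest in mutant 5. Acta2, the smooth muscle actin gene, read 13.29 in mutant 5 and 11.72 in mutant 2. The part of arterial muscle in the Rgs5 values was not tested. The genes most like Rgs5 across the mice were Cnpy4 (r = 0.94), Tada2a (r = 0.92) and Stx11 (r = 0.90).

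None of 9 measured genes of the RGS R4 subfamily, to which Rgs5 belongs, passed in either direction, beside 1.26% of all genes. Rgs3 came nearest: it read 11.73 to 11.93 in wild types and 11.43 to 11.69 in mutants without overlap, a difference of -0.30 ± 0.07 (SE, adjusted p = 0.101). Rgs4, a mural cell gene too, differed by -0.31 ± 0.19 (SE, adjusted p = 0.690) and Rgs18, a gene of platelets, by -0.09 ± 0.07 (SE, adjusted p = 0.756). The signal of Rgs18 was low, with a mean of 3.68, and 4 of the 9 genes lay above the median of all probe sets. The median over the 9 genes was -0.08.

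Of smooth muscle genes, 1 of 10 passed and none was lower by the test, beside 1.26% of all genes passing in either direction. It was Myl9, the regulatory light chain of smooth muscle myosin, which rose by 0.58 ± 0.11 (SE, adjusted p = 0.0330) from 13.25 ± 0.20 (SD, n = 5) to 13.82 ± 0.16 (SD, n = 5). Dropping wild type 1 or mutant 2 kept this call, dropping any of the other 8 mice ended it (adjusted p up to 0.0938), and it was lost with array weights and with the 7 mice of close animal numbers blocked by run (up to 0.0613). Acta2 differed by 0.89 ± 0.27 (SE, adjusted p = 0.243), Tagln by 0.77 ± 0.28 (SE, adjusted p = 0.369) and Tpm2 by 0.42 ± 0.15 (SE, adjusted p = 0.381). In all 9 of 10 differences were positive, with a median of 0.31.

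Kcnj8 and Abcc9 encode the pore (Kir6.1) and the sulfonylurea receptor (SUR2) of the ATP-sensitive potassium channel of vascular mural cells, which lets membrane potential follow the energy state of the cell. They are neighbours on chromosome 6, with 0 protein-coding genes between them in RefSeq. Kcnj8 (1418142_at) was dim, with a mean of 5.93, under the median of all probe sets. It read 5.92, 5.84, 6.45, 5.84 and 6.03 in wild types 1 to 5 and 5.65, 6.31, 6.15, 5.36 and 5.76 in mutants 1 to 5. Wild type 3 and mutants 2 and 3 were the highest, and the groups overlapped. The difference was -0.17 ± 0.18 (SE, adjusted p = 0.836). It was -0.047 without mutant 4, -0.061 without wild type 3 and -0.29 without mutant 2.

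Abcc9 was measured by 3 probe sets. The brightest, 1435752_s_at, read 9.30, 8.85, 9.62, 9.32 and 9.29 in wild types and 9.23, 9.77, 9.84, 9.26 and 9.17 in mutants. Wild type 3 and mutants 2 and 3 were again the highest. Its difference was 0.18 ± 0.17 (SE, adjusted p = 0.812), that of 1435751_at was 0.22 ± 0.16 (SE, adjusted p = 0.737) and that of 1420408_a_at was 0.42 ± 0.21 (SE, adjusted p = 0.594). Without 1 mouse these were 0.071 to 0.26, 0.11 to 0.29 and 0.28 to 0.52, lowest without wild type 2 for the first and without mutant 3 for the others. The 3 Abcc9 probe sets ordered the mice alike (r from 0.92 to 0.97).

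With genotype means taken off, Kcnj8 followed the 3 Abcc9 probe sets over the 10 arrays with r = 0.83, 0.87 and 0.77 (Spearman rho 0.68, 0.85 and 0.81). Without mutant 2 and wild type 3, the 2 mice farthest from the median of Kcnj8 on these values, r was 0.70, 0.85 and 0.71. The pair of Kcnj8 and 1435752_s_at was the second highest of 28 pairs of genes, so these values are a description with no test. Genes read on the same array share its preparation and its tubule content. The slopes on the proximal tubule score were not called, at -0.08 ± 0.08 (SE, adjusted p = 0.837) for Kcnj8 and 0.01 ± 0.08 (SE, adjusted p = 0.981) for 1435752_s_at. The genes most like Kcnj8 were Yipf6 (r = 0.99), Mtfr1l (r = 0.97) and Akap7 (r = 0.96), and those most like Abcc9 were Mtf2 (r = 0.97), Ripor2 (r = 0.97) and Golga7 (r = 0.96).

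**Figure D5:**
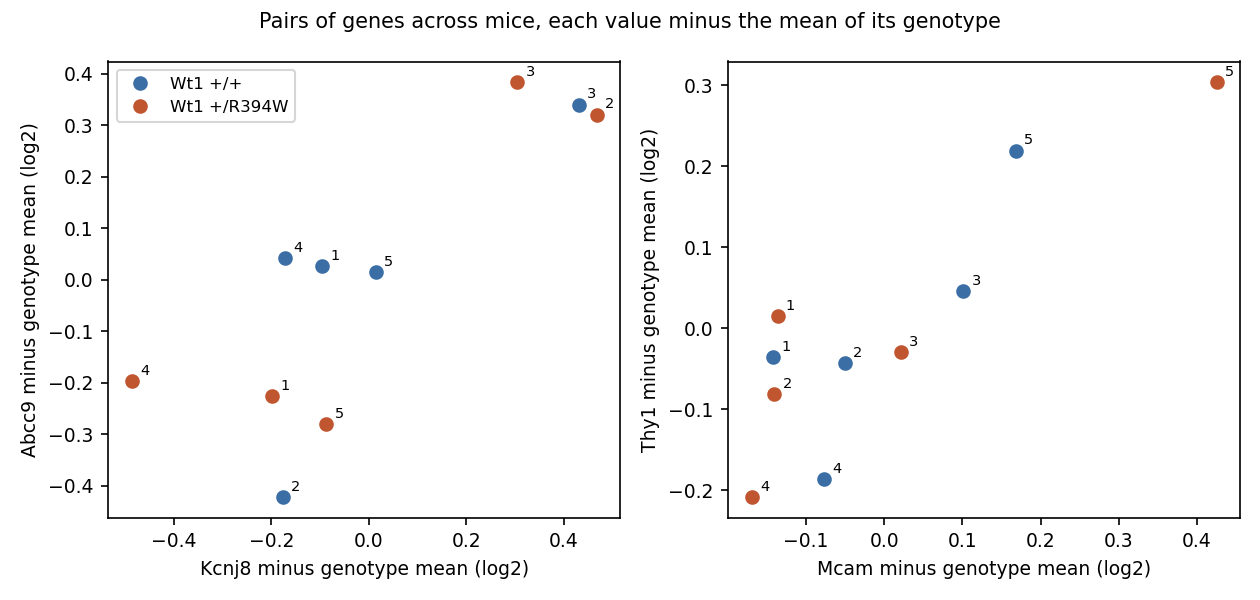
Values of 2 pairs of genes across 10 mice, each minus the mean of its genotype, in log2 units: Kcnj8 against Abcc9 (1435752_s_at) on the left, Mcam against Thy1 on the right, with mice numbered. Wild type 3 and mutants 2 and 3 lie at the upper right for the channel genes, and mutant 5 for Mcam and Thy1.

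Promoters of both channel genes are printed because their levels were correlated across mice. Each window covers 250 bases before to 50 after the RefSeq start on the minus strand of GRCm38.p6 (Kcnj8 at chr6:142571565-142571864, Abcc9 at chr6:142702225-142702524), with a match to GGGCGG in capitals.
Kcnj8: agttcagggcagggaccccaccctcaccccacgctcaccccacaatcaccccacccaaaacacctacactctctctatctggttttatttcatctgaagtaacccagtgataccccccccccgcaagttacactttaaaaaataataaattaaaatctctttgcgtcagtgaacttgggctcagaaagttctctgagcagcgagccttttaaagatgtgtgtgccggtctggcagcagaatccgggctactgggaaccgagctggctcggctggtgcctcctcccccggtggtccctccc
Abcc9: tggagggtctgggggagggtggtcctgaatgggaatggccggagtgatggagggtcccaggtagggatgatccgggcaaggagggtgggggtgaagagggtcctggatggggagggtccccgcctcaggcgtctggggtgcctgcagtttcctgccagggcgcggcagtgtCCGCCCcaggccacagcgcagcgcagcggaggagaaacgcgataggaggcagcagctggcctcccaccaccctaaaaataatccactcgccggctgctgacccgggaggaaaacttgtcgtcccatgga
Abcc9 has 1 match and Kcnj8 has 0. Neither window holds GTGGGAA, the site of the Notch effector RBPJ (6.38% of all windows), or a CArG box, the site of serum response factor (1.63%). The GATA factor site AGATAA, present in 11.2% of windows, was absent from both. So were the TATA box letters TATAAA, present in 13.6%, and the letters CCAAT, present in 37.4%. GC content was 53.3% for Kcnj8 and 65.7% for Abcc9.

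The paralogous subunits, found in other tissues, gave no call either. Kcnj11, the Kir6.2 pore, read 8.09 to 8.48 in wild types and 8.23 to 8.51 in mutants, a difference of 0.07 ± 0.09 (SE, adjusted p = 0.858). Abcc8, the SUR1 receptor, differed by -0.03 ± 0.08 (SE, adjusted p = 0.952), at a mean level of 6.29, under the median of all probe sets. Thus 0 of 4 channel subunits passed, beside 1.26% of all genes, with a median difference of 0.02.

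Ptn encodes pleiotrophin, a heparin-binding growth factor secreted by mural and stromal cells. Its 3 probe sets (chromosome 6) did not order the mice alike. Probe set 1448254_at read 12.50, 12.55, 12.59, 12.43 and 12.91 in wild types and 12.50, 12.65, 12.49, 12.47 and 12.64 in mutants, with wild type 5 on its own at the top. Probe set 1416211_a_at read 12.31, 12.09, 11.99, 12.27 and 12.11 in wild types and 11.91, 12.02, 11.93, 11.65 and 12.05 in mutants, with mutants 1, 3 and 4 below every wild type. The differences were -0.05 ± 0.09 (SE, adjusted p = 0.917) and -0.24 ± 0.09 (SE, adjusted p = 0.393).

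The third, 1443173_at, read 6.99 to 7.79 in wild types and 6.73 to 8.17 in mutants, a difference of -0.20 ± 0.25 (SE, adjusted p = 0.860). It was -0.45 without mutant 4, whose 8.17 was the highest value, -0.11 without wild type 4 and -0.088 without mutant 2. Correlations between the 3 across the arrays were -0.01, -0.31 and -0.35, so no probe set served as a check on another. The genes most like 1448254_at were Syncrip (r = 0.94), Trnt1 (r = 0.94) and Tent5a (r = 0.93).

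Among the related growth factor midkine and the receptors and surface partners of pleiotrophin, 1 of 10 genes passed, Ptn included in the 10, beside 1.26% of all genes. It was Sdc1, which encodes syndecan-1, a heparan sulfate proteoglycan of epithelia that binds pleiotrophin through its sugar chains. Sdc1 read 10.24, 10.11, 10.33, 10.26 and 10.04 in wild types and 9.31, 9.72, 9.79, 9.29 and 9.26 in mutants. The groups were apart, and Sdc1 fell by 0.72 ± 0.12 (SE, adjusted p = 0.0145) on the log2 scale. Dropping wild type 4 ended the call (adjusted p = 0.0507) and with the 7 mice of close animal numbers (adjusted p up to 0.156). Ptprz1, a receptor phosphatase for pleiotrophin, differed by -0.41 ± 0.13 (SE, adjusted p = 0.269), and Sdc3, the neural syndecan, by 0.19 ± 0.10 (SE, adjusted p = 0.606). Ptprz1 was dim, with a mean of 5.46, under the median of all probe sets. Over the 10 genes the median was 0.09.

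No gene of a wider mesangial and mural list was called. Of 24 fixed in the list, 22 were measured, and 0 passed in either direction, where 1.26% of all genes did and a list of this size is too short to tell 0 from that share: 11 differences were positive and 11 negative, with a median of 0.01. Pdgfrb, the receptor on which these cells depend, differed by -0.12 ± 0.16 (SE, adjusted p = 0.875), with mutant 5 lowest at 12.42 and the other mice between 12.90 and 13.37. Itga8, the mesangial integrin chain, differed by 0.12 ± 0.06 (SE, adjusted p = 0.572) and Des, which encodes desmin, by -0.15 ± 0.08 (SE, adjusted p = 0.626). Gucy1b1, a subunit of the nitric oxide receptor of mural cells, came nearest to the threshold with 0.32 ± 0.07 (SE, adjusted p = 0.0812): it read 11.16 to 11.44 in wild types and 11.44 to 11.72 in mutants, with a slight overlap. Foxd1, a stromal and podocyte transcription factor, differed by -0.48 ± 0.14 (SE, adjusted p = 0.229), and Higd1b, a pericyte gene, by 0.33 ± 0.12 (SE, adjusted p = 0.346). Of the renin lineage, 3 of 5 genes were measured (Gja5, Agt and Ace) and 0 passed, beside 1.26% of all genes, with a median of 0.11. Ren1, the renin gene, and Akr1b7 had no probe set naming them alone, so renin itself was not read.

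Of the remaining lists of other cell types, 1 of 8 fibroblast genes passed, beside 1.26% of all genes, and it was higher: Dcn, the proteoglycan decorin, by 1.83 ± 0.16 (SE, adjusted p = 0.000252). Of the 8 differences 4 were positive and 4 negative, with a median of 0.02. The list means spanned 7.04 to 7.21 among wild types and 7.29 to 7.60 among mutants, where Dcn and Col3a1, a fibrillar collagen chain at 1.01 ± 0.28 (SE, adjusted p = 0.186), had the largest differences, and Pdgfra, a PDGF receptor of fibroblasts, was at -0.28 ± 0.21 (SE, adjusted p = 0.760). No gene passed among 7 podocyte genes, 12 proximal tubule genes, 13 distal nephron genes or 7 nerve genes, and their median differences were -0.08, 0.47, 0.13 and 0.01. In that order, 1 of 7, 12 of 12, 10 of 13 and 4 of 7 differences were positive. Most of the 12 proximal tubule genes rose and fell together from mouse to mouse, so their signs are not separate observations. Their mean overlapped between genotypes, at 6.51 to 9.28 in wild types and 6.90 to 10.38 in mutants.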

How the data were processed

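Total RNA of glomeruli from 10 mice was hybridised to 1 array per mouse, per the labels. The deposited values are log2 expression values that the submitters' processing notes name as RMA, whose version and settings no source used here gives. RMA makes arrays alike in distribution and compresses differences of dim genes. Of 45101 probe sets, 64 controls were left out and 45037 tested. The platform annotation named 1 gene for 34945, several for 932 and none listed for 9160. The brightest probe set by overall mean stood for a gene. Array medians lay within 0.0817 of each other, and no arrays were identical. Their number of arrays limits the precision. Replicate numbers only name mice, and no source used here names litters.

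Mutants were tested against wild types with limma 3.58.1 in R 4.3.3 on all 10 mice without covariates, two-sided, with Benjamini-Hochberg adjustment over all 45037 probe sets and a call at an adjusted p under 0.05. Every adjusted p comes from limma. Intervals are 95% and not adjusted for the number of probe sets. Slopes on tubule scores came from the same fit with genotype. Lists were described by counts and medians, with no set test. Named were all 8 genes with every probe set, called genes and otherwise up to 3 genes with the smallest p of each list, all channel subunits and the 3 genes most like each member by Pearson correlation. Genes named outside this rule (Pdgfrb, Itga8, Des, Col3a1, Pdgfra) were chosen after their values were seen. Members and lists were chosen with earlier results of these data known. Of the genes in the lists, 9 had no probe set naming them alone. Promoter windows came from RefSeq (GRCm38.p6) for 7 of 8 genes, and 2 of the 7 motifs (GGGCGG and CCAAT) were added after the windows were seen. The fits were tested on simulated data. Figures used matplotlib (version 3.10.9) in Python (version 3.11.15).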

Additional observations from a re-analysis of the deposited data

Results flagged for a closer look

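Single mice stood apart from the others of their genotype in 3 of 42 groups of 5 tested by Dixon's criterion, which chance does in about 1 in 20. With Cspg4 probe set 1450944_at, mutant 1 read 9.14, above the other mutants, of which the next read 8.88. With Ptn probe set 1443173_at, mutant 4 read 8.17 and the next mutant 7.13. The mean of the distal nephron and collecting duct genes was 6.50 in mutant 5, with the next mutant at 7.63.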

How the results depend on the processing

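Over the alternatives, 0 of the 16 probe sets and 0 of the 8 genes passed the adjusted test, and 344 of 352 recomputed differences kept their direction. The 8 that turned were of Gata3, at -0.0083 with array weights and from -0.047 to 0.14 without 1 mouse, and of Ptn 1448254_at, at 0.0055 with the 7 mice of close animal numbers, 0.0054 with their runs as a block, and from -0.088 to 0.033 without 1 mouse. Of the slopes of the 8 genes on tubule scores, some turned sign when 1 mouse was left out, all of them uncalled: proximal slopes of Kcnj8 (-0.16 to 0.0029), Cspg4 (-0.019 to 0.012) and Abcc9 (-0.079 to 0.057), and distal slopes of Kcnj8 (-0.063 to 0.17) and Rgs5 (-0.93 to 0.048). The causes were not tested. Over all probe sets 384 passed, with 110 for the 7 mice of close animal numbers, 126 with their runs as a block, 144 at an adjusted p under 0.01, 580 under 0.1, and 216 to 301 without 1 mouse (242 without wild type 1, 216 without wild type 4). Of the listed genes 3 passed (most alternatives for these were chosen after seeing the data), with 5 under a variance trend, 1 with the runs as a block, 1 at 0.01, 5 at 0.1, and 1 to 3 without 1 mouse (1 without wild type 4). No paired analysis was possible because the labels give no litter and no number shared by a mutant and a wild type; the runs of animal numbers are a coarser grouping of 7 mice. Probe sets of Kcnj8 and Thy1 were under the filter at a mean of 6, so they have no value there, and differences of such dim probe sets are compressed by RMA.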
